A study of Mus musculus with 6 samples.

Results

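The genes described here are 32 interferon-stimulated genes, among them interferon receptors, STAT and IRF transcription factors, RNA sensors and antiviral effectors, out of 43432 genes in the count tables. They were chosen by symbol, and all 32 symbols matched 1 Ensembl identifier each. The RNA came from spinal cords of C57BL/6 wildtype mice. In 3 mice (SCI) the cord was bruised on a single side at cervical level 5 with an Infinite Horizon impactor set to 50 kdyn, and tissue was taken 4 h later. The 3 control mice (Sham) had the bone over the cord removed at the same level and no blow. The time from surgery to tissue collection in Sham is not given in the sources used here, so it may differ from that in SCI. The labels name no altered allele, transgene or drug in either group, and both groups had surgery.

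Interferons are cytokines, and cells release those of type I when they sense viral or displaced nucleic acid. Type I interferons bind the receptor pair Ifnar1 and Ifnar2, and interferon gamma binds Ifngr1 with Ifngr2. Janus kinases then activate STAT proteins. A complex that holds Stat2 and Irf9 binds the interferon-stimulated response element (ISRE) beside target genes, and STAT dimers bind the gamma-activated site (GAS). In the nervous system microglia, astrocytes, endothelium and infiltrating leukocytes all express such targets. Several of them, Irf1, Rsad2 and Cxcl10 among these, are also known to respond to other inflammatory signals.

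Of the 32 genes, 2 rose after contusion and none fell. They were Rsad2 (viperin), an antiviral enzyme, which was 4.32-fold higher, and Gbp2, a guanylate-binding GTPase of the response to interferon gamma, which was 3.06-fold higher. The classic targets Isg15, Ifit1, Ifit3, Oasl2 and Mx2 did not pass the test, nor did Stat2 or any receptor or IRF gene. Across the list 29 genes had enough counts to be tested. Calls were made at an adjusted p under 0.05 (edgeR quasi-likelihood test, Benjamini-Hochberg over 13560 genes), a mark that 0.885% of all genes tested passed upward and 0.0442% downward. At an unadjusted p under 0.05, 4 members were higher and 0 lower, where the shares over all genes were 4.27% and 3.11%. DESeq2 called the same pair and limma voom called Gbp2 alone, and neither called a member lower.

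All values below are CPM (counts scaled to 1e+06 per library) adjusted by TMM, a normalization on the genes that most libraries share. A count from a library primed at the poly(A) tail does not scale with transcript length. The 6 libraries held 3407176 to 11543633 counts, of which the members held 742 to 3556. Where a gene had no count, up to 3 counts could still be expected, or 0.288 to 0.811 CPM by library after TMM, for counting error alone. Neuron, astrocyte and oligodendrocyte markers were present in every library, with all 10 of each list detected. Hepatocyte markers were present as well, with all 12 detected and summed levels of 54948 to 124091 CPM in Sham and 69982 to 82439 CPM in SCI. They took 5.97% (Sham 3), 7.97% (Sham 1) and 11.2% (Sham 2) of counts in Sham and 7.48% to 7.77% in SCI. Liver transcripts are not expected in cord tissue, and their source was not tested. In bulk tissue, fewer cells of a type and less RNA per cell cannot be told apart.

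The stretches of sequence before the transcription start of 7 members are shown because they hold matches to the ISRE, in genes that rose and in genes that did not. They come from RefSeq on GRCm38.p6, end at the base before the RefSeq start and run 5′ to 3′ on the gene's strand. Capitals mark matches to GAAANNGAAA, the core of the ISRE, read on either strand, and neighbouring matches may overlap.
Rsad2 (chr12:26456453-26456652, minus strand, 200 bases): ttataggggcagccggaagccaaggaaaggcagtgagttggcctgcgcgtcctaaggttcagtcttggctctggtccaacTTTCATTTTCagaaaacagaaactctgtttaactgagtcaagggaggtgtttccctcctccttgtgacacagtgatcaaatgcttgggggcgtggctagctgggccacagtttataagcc
Gbp2 (chr3:142620563-142620662, plus strand, 100 bases): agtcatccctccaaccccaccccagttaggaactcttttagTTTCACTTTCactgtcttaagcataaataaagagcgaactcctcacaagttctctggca
Gbp3 (chr3:142559944-142560043, plus strand, 100 bases): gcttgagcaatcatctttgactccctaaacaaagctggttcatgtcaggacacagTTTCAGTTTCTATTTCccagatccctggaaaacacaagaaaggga
Gbp7 (chr3:142530236-142530335, plus strand, 100 bases): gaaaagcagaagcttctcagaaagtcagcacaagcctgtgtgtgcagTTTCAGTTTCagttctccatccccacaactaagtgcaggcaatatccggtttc
Isg15 (chr4:156200819-156200918, minus strand, 100 bases): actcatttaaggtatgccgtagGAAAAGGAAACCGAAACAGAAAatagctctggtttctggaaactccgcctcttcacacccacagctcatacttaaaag
Ifit3 (chr19:34583329-34583528, plus strand, 200 bases): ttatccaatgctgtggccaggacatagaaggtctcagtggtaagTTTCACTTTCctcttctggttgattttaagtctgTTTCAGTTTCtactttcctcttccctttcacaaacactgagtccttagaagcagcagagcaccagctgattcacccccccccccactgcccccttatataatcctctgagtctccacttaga
Ifit3b (chr19:34607757-34607956, plus strand, 200 bases): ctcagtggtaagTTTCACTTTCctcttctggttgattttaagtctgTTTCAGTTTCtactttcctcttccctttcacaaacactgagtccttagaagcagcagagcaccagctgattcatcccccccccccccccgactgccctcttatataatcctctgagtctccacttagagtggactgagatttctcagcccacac

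Windows of 300 bases, from 250 before to 50 after the RefSeq start, were found for 28 members and for 27025 genes in all. Rtp4, Usp18, Mx1 and Mx2 had none. The ISRE core was matched in 14 of the 28 members, or 50%, and in 3.99% of all genes. Among them 8 had at least 2 matches, and the 3 of Isg15 overlap in a single run. The GAS pattern TTCNNNGAA, which reads alike on both strands, was matched in 9 of the 28 and in 9.55% of all genes. Both genes that rose have 1 ISRE match, which begins 120 bases before the start in Rsad2 and 59 before it in Gbp2. In the GENCODE annotation Gbp2 begins at base 142620602, upstream of the RefSeq start, and its match then lies within the gene. A match was also present in 11 of the 25 windowed members that were tested and not called. Whether a match goes with a rise was not tested, as only 2 members rose. Ifngr1, Irf7, Irf9, Oasl1, Oasl2, Cmpk2, Xaf1 and Ifi44 had no match to either pattern, which says only that these letters are not in this window.

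The receptors come first in the pathway, and their transcripts were present in every library. Ifngr1, the binding chain for interferon gamma, was at 26.2, 37.9 and 27.3 CPM in Sham 1 to 3 and at 27.5, 30.4 and 34.6 CPM in SCI 1 to 3. Its log2 fold change was 0.00 ± 0.20 (SE), with a 95% interval of -0.43 to 0.43. The groups overlapped fully, and the interval leaves out a doubling or a halving. Ifnar2, a chain of the type I receptor, was at 21.6, 28.7 and 13.5 CPM in Sham and 20.1, 25.0 and 25.3 CPM in SCI (log2 fold change 0.11 ± 0.25). Its partner chain Ifnar1 had 4.45, 5.86 and 6.49 CPM in Sham and 6.15, 5.18 and 11.3 CPM in SCI. The highest value came from SCI 3 alone, and the log2 fold change was 0.42 ± 0.34. Ifnar1 shares 6.43% of the words of 50 bases at its transcript end with other genes, so part of its reads are uncertain.

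None of the 5 transcription factors passed the test (0 at an unadjusted p under 0.05). Irf1, an early factor downstream of interferon gamma, came nearest. It was at 15.3, 23.1 and 10.3 CPM in Sham and at 28.0, 24.6 and 18.4 CPM in SCI. The values of SCI 3 and Sham 2 crossed, and the log2 fold change was 0.51 ± 0.27 (unadjusted p = 0.0737, adjusted p = 0.722). Stat2, the STAT protein of the ISRE-binding complex, was at 27.4, 31.3 and 14.1 CPM in Sham and 26.4, 25.8 and 35.8 CPM in SCI (log2 fold change 0.24 ± 0.26). Irf9, its DNA-binding partner, was at 21.3, 22.3 and 12.2 CPM against 19.3, 23.6 and 30.5 CPM (0.35 ± 0.25). In both genes the lowest library was Sham 3 and the highest SCI 3. Irf8, a factor of myeloid cells and microglia, was at 13.1 ± 2.86 CPM (SD, n = 3) in Sham against 14.0 ± 1.58 CPM for the SCI group, a log2 fold change of 0.07 ± 0.23.

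Irf7, which amplifies type I interferon production, had a negative log2 fold change of -0.69 ± 0.41 (adjusted p = 0.805). Sham 2 stood alone at 15.9 CPM, while Sham 1 and Sham 3 were at 6.55 and 5.41 CPM and the SCI libraries at 5.31, 3.60 and 9.49 CPM. Without Sham 2 the groups were close, and the log2 fold change was -0.02. With the other choices tried it reached -1.12, and it was negative in all 15 fits. Irf7 overlaps Phrf1 on the opposite strand. The strand setting of the counts is not given in the sources used here, so the assignment of reads between this pair is uncertain. The same doubt holds for Irf1 (Gm17334), Usp18 (Gm44148), Oasl1 (Gm13822), Trim30a (Gm25405), Ifi35 (Gm11626) and Gbp2 (Mir6381). On their own strand, Irf9 overlaps Rnf31, Ifnar2 overlaps Gm21970, Irf8 overlaps Gm20388, Rtp4 overlaps Gm45338 and Gbp7 overlaps Gm43802.

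The cytosolic RNA sensors Ddx58 (RIG-I) and Ifih1 (MDA5) detect viral double-stranded RNA and feed interferon production. Ddx58 was at 11.3, 14.8 and 6.76 CPM in Sham and 10.1, 11.7 and 18.8 CPM in SCI (log2 fold change 0.24 ± 0.30). Ifih1 was at 14.5, 18.3 and 5.68 CPM in Sham and 12.9, 10.4 and 10.3 CPM in SCI (-0.25 ± 0.32). Neither group lay apart from the other, and both 95% intervals left out a doubling (upper limits of 0.88 and 0.42).

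**Figure D1:**
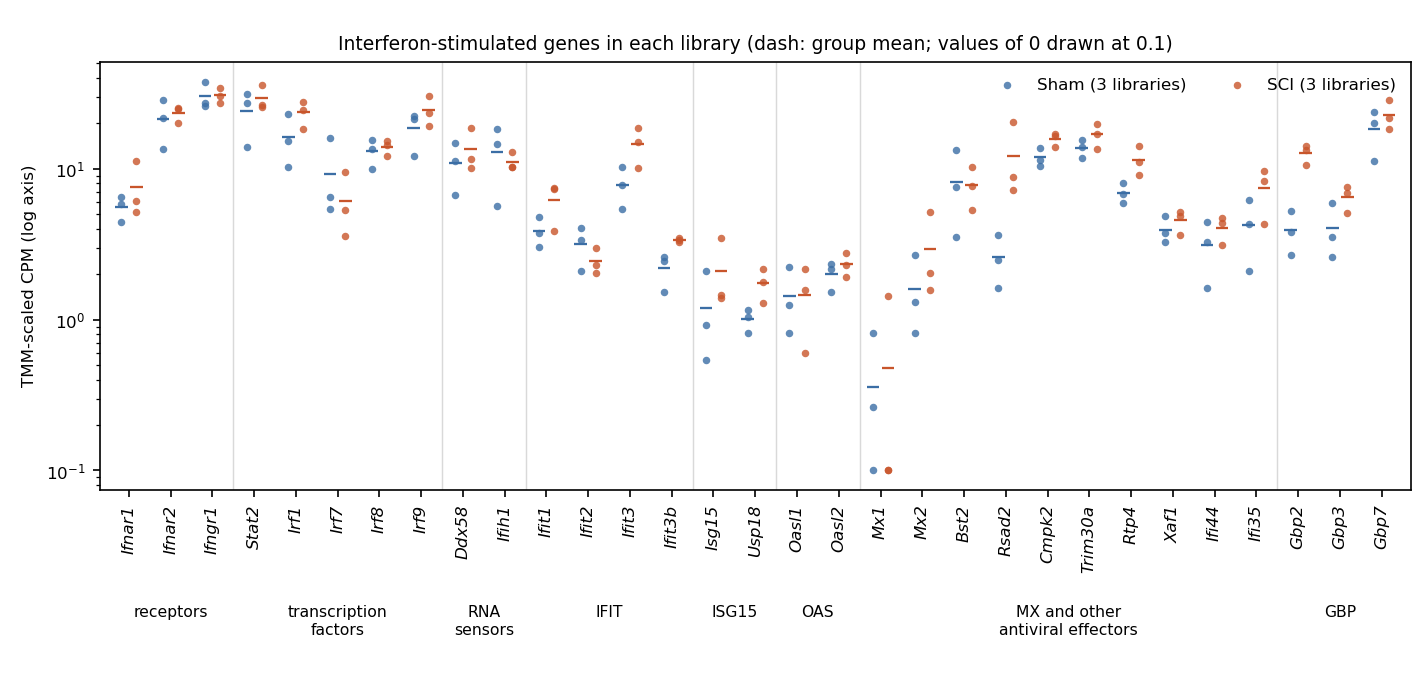
TMM-scaled CPM on a log axis of the 31 members with at least 1 count, by role; each point is a library (blue Sham, orange SCI), dashes are group means and values of 0 are drawn at 0.1. In Rsad2 and Gbp2 the 3 SCI points lie clear of the 3 Sham points, while in most other members the points mix.

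IFIT proteins bind foreign RNA and block its translation, and their genes sit side by side on chromosome 19. Ifit3 was at 10.3, 7.88 and 5.41 CPM in Sham and at 10.1, 15.0 and 18.6 CPM in SCI. Only SCI 2 and SCI 3 exceeded all Sham libraries. Its log2 fold change was 0.83 ± 0.29 with a 95% interval of 0.22 to 1.45, an unadjusted p of 0.0111 and an adjusted p of 0.398 in the edgeR test. Ifit1 was at 3.01, 4.80 and 3.78 CPM in Sham and 3.86, 7.34 and 7.51 CPM in SCI (0.65 ± 0.35), again with SCI 1 among the Sham values. Ifit3b was at 2.62, 1.54 and 2.43 CPM against 3.26, 3.46 and 3.36 CPM (0.64 ± 0.40, adjusted p = 0.818). Its groups did not overlap, but its counts were 9 to 27 per library. Ifit2 had the opposite sign, at 2.10, 3.36 and 4.05 CPM in Sham and 2.05, 2.30 and 2.97 CPM in SCI (-0.36 ± 0.42).

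Ifit3 and Ifit3b are close copies, as the shared run around their capitals in the printed stretches shows. Aligned without gaps at the first match, 188 of 218 bases before the start were identical. At the transcript end, where these libraries are read, 14.9% of the words of 50 bases of Ifit3 also occur in Ifit3b. The split of reads between the copies is therefore uncertain. At the transcript end of Ifit3b, 1.77% of the words occur in other genes, and Ifit3 is not among them. The log2 ratio of Ifit3 to Ifit3b within a library was 1.83 ± 0.62 in Sham and 2.07 ± 0.42 in SCI (SD, n = 3; two-sided exact permutation test, p = 0.6, adjusted p = 0.6 over 4 pairs of neighbouring members).

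Isg15, a ubiquitin-like modifier and among the strongest targets of type I interferon, stayed near the detection limit. It had 7, 22 and 2 counts in Sham and 12, 24 and 7 counts in SCI, or 0.917, 2.11 and 0.541 CPM against 1.45, 3.46 and 1.38 CPM. The log2 fold change was 0.67 ± 0.57, and the 95% interval of -0.54 to 1.89 includes a doubling as well as no change. Usp18, the protease that removes Isg15 and restrains the receptor, did not pass the filter on low counts. It had 23 counts over Sham and 36 over SCI, and every SCI library was above every Sham library (1.30 to 2.17 against 0.811 to 1.15 CPM). Fitted without the filter its log2 fold change was 0.75 ± 0.63 (edgeR adjusted p = 0.845).

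The OAS family makes or mimics the enzymes that activate RNase L. Oasl2 was at 2.36, 1.54 and 2.16 CPM in Sham and 1.93, 2.30 and 2.77 CPM in SCI (log2 fold change 0.22 ± 0.44). Oasl1 was at 2.23, 1.25 and 0.811 CPM against 0.603, 1.58 and 2.18 CPM (-0.10 ± 0.58). In both genes the groups overlapped. Oas1a had 0 counts in all 6 libraries, which allows up to 0.288 CPM in the deepest and 0.811 CPM in the shallowest. More than 50% of the words at its transcript end (56.1%) also occur in Oas1g, which had 0 counts as well, so a count of 0 for Oas1a is uncertain.

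Rsad2 makes a nucleotide analogue that stops viral RNA synthesis. It was at 2.49, 3.65 and 1.62 CPM in Sham and at 8.80, 7.20 and 20.6 CPM in SCI. Every SCI library was above every Sham library, and SCI 3 was far above the other two. The log2 fold change was 2.11 ± 0.42 (95% interval 1.22 to 3.00, edgeR adjusted p = 0.0196). Without SCI 3 it was 1.53 ± 0.37 and no longer called (adjusted p = 0.117). The call was also lost without Sham 1 (adjusted p = 0.130) and with limma voom (0.0921), and over all alternatives the adjusted p ran from 1.39e-07 to 0.141. The gene lies at chr12:26442746-26456452 on the minus strand (GRCm38, ENSMUSG00000020641).

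Gbp2 is a large GTPase that coats membranes of intracellular pathogens. It was at 3.80, 5.28 and 2.7 CPM in Sham and at 10.6, 14.1 and 13.2 CPM in SCI, so that the lowest SCI library had more than the highest Sham library. In counts this was 29, 55 and 10 against 88, 98 and 67. The log2 fold change was 1.61 ± 0.29 (95% interval 0.99 to 2.23, edgeR adjusted p = 0.0100). Its adjusted p was 0.0869 without Sham 1 and 0.0716 without SCI 2, and it ran from 4.68e-05 to 0.0869 over all alternatives. Gbp2 lies at chr3:142620602-142638008 on the plus strand (ENSMUSG00000028270).

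Both genes have neighbours on the list that did not pass the test. Cmpk2, a mitochondrial nucleotide kinase and a target of interferon, is transcribed away from Rsad2 across a gap of 12751 bases. It was at 10.5, 11.5 and 13.8 CPM in Sham and 13.9, 17.0 and 16.6 CPM in SCI. Its groups touched without overlapping, and the log2 fold change was 0.42 ± 0.22 (adjusted p = 0.729). The log2 ratio of Rsad2 to Cmpk2 within a library was -2.27 ± 0.73 in Sham and -0.53 ± 0.78 in SCI (SD, n = 3), higher in each SCI library (two-sided exact permutation test, p = 0.1, the smallest that 3 against 3 can give; adjusted p = 0.133 over the same 4 pairs).

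Gbp3 and Gbp7 lie on the same strand upstream of Gbp2. Gbp3 was at 2.62, 5.96 and 3.51 CPM in Sham and 5.06, 7.63 and 6.92 CPM in SCI, where Sham 2 exceeded SCI 1 (log2 fold change 0.65 ± 0.35, adjusted p = 0.748). Gbp7 was at 20.2, 23.7 and 11.4 CPM against 18.4, 21.6 and 28.5 CPM (0.27 ± 0.26), with groups that overlapped. The log2 ratio of Gbp2 to Gbp7 was -2.22 ± 0.17 in Sham and -0.84 ± 0.25 in SCI, and that of Gbp2 to Gbp3 was -0.01 ± 0.48 and 0.96 ± 0.09. Each SCI library had a higher ratio than the 3 Sham libraries (p = 0.1 for each ratio in the same exact test, adjusted p = 0.133). These pairs were chosen with the values known. None of the 3 GBP genes shares a word of 50 bases at its transcript end with another gene, and all 3 carry an ISRE match in the stretches printed. Gbp7 overlaps Gm43802 on its own strand, so the assignment of its reads is uncertain.

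**Figure D2:**
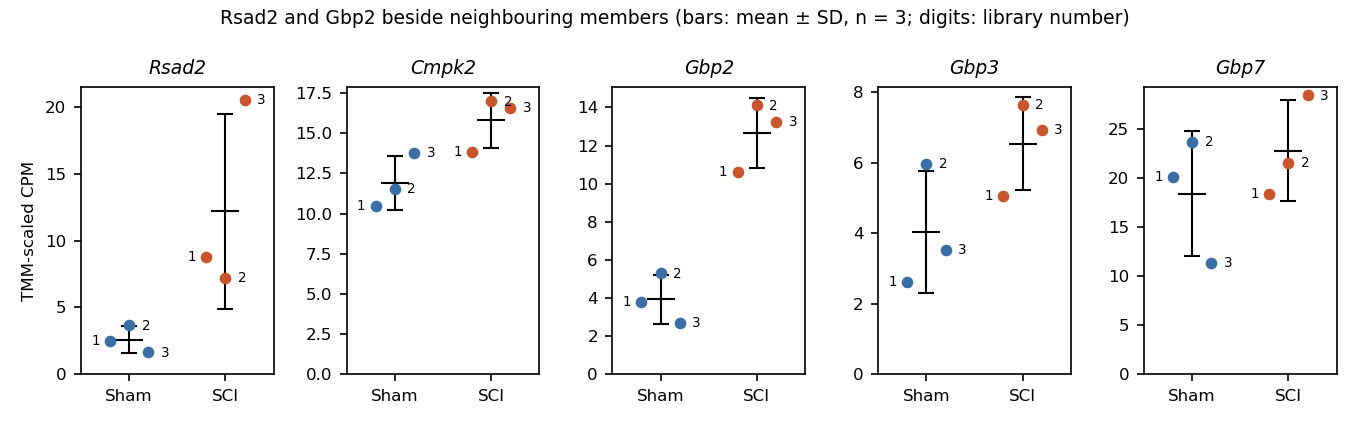
TMM-scaled CPM of Rsad2 with its neighbour Cmpk2, and of Gbp2 with Gbp3 and Gbp7, on axes that start at 0; points are libraries with their numbers, bars are the mean ± SD of 3 mice. Rsad2 and Gbp2 separate the groups by a wide margin, and SCI 3 holds the highest value of Rsad2.

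Other antiviral effectors were present at modest levels. Rtp4, a chaperone that also binds viral RNA, was at 6.81, 8.07 and 5.95 CPM in Sham and 9.04, 14.1 and 11.1 CPM in SCI. The groups did not overlap, and its log2 fold change was 0.69 ± 0.27 (95% interval 0.12 to 1.25, unadjusted p = 0.0202, adjusted p = 0.499). Rtp4 overlaps Masp1 on the opposite strand, and the assignment of reads between this pair, too, is uncertain. Trim30a, a ubiquitin ligase of the TRIM family, was at 11.8, 15.5 and 14.1 CPM against 13.6, 17.1 and 20.0 CPM (0.29 ± 0.23). Ifi35 was at 2.10, 6.24 and 4.32 CPM in Sham and 8.32, 4.32 and 9.69 CPM in SCI (0.78 ± 0.40), and SCI 2 lay inside the Sham range.

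Bst2 (tetherin), which holds budding virus at the membrane, was at 7.60, 13.3 and 3.51 CPM in Sham and 5.31, 10.4 and 7.71 CPM in SCI (-0.14 ± 0.38). Ifi44 (0.30 ± 0.39) and the apoptosis regulator Xaf1 (0.22 ± 0.34) stayed below 6 CPM in each library, with overlapping groups. Mx2 was at 1.31, 2.69 and 0.811 CPM against 2.05, 1.58 and 5.14 CPM (0.69 ± 0.55), and is annotated as a polymorphic pseudogene. Mx1, whose allele in C57BL/6 mice is known to be defective, had 2, 0 and 3 counts in Sham and 0, 10 and 0 in SCI and was not tested.

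**Figure D3:**
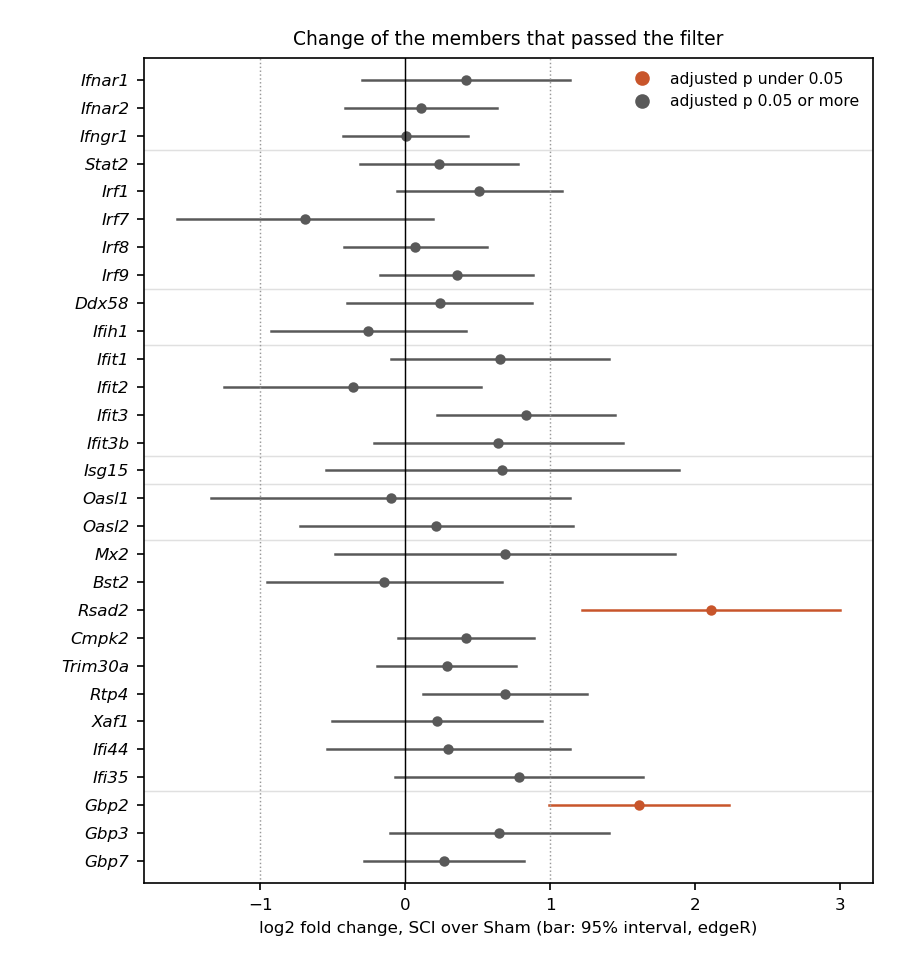
log2 fold change of SCI over Sham for the 29 members that passed the filter, with 95% intervals from the edgeR fit; orange marks an adjusted p under 0.05 and dotted lines mark a doubling and a halving. Rsad2 and Gbp2 stand at 2.11 and 1.61, and the other 27 lie between -0.69 and 0.83.

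Among the 29 tested members, 24 log2 fold changes were positive and 5 negative, with a median of 0.30. The median was 0.13 without SCI 3 and 0.46 without Sham 2. Over all 13560 genes 49.7% were positive and the median was 0.00. Without the filter 26 of 31 members with a count were positive, against 10696 of 21524 genes. The groups did not overlap in 5 tested members, all higher in SCI, which were Rsad2, Gbp2, Rtp4, Cmpk2 and Ifit3b. Over all genes 7.73% were higher and 5.94% lower without overlap. For 14 of the 27 members that were not called the 95% interval lay below a doubling, and for 13 it included a doubling. The members that passed the filter are those with enough counts, so these numbers describe them and support no statement on the list as a whole.

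The members also shifted together between libraries of a group, and are not independent of each other. The members summed to 263, 342 and 201 CPM in Sham 1 to 3 and to 298, 335 and 398 CPM in SCI 1 to 3, and the groups overlapped. Sham 2 was the highest Sham library in 21 of 29 tested members and Sham 3 the lowest in 18, where the shares over all genes were 38.3% and 37.7%. The order Sham 2, Sham 1, Sham 3 occurred in 16 of 29 members (55.2%) and in 27.0% of all genes. It is also the order of the summed hepatocyte markers, at 124091, 79211 and 54948 CPM, and of the total counts, at 11543633, 7591326 and 3407176. In SCI, library 3 was highest in 18 members and library 1 lowest in 19, against 38.3% and 27.7% of all genes. The hepatocyte sums of the SCI group ran in the order SCI 3, SCI 1, SCI 2, an order that 6 of 29 members (20.7%) and 22.0% of all genes followed. Total counts ran in the order SCI 1, SCI 2, SCI 3 (8229961, 6499952 and 5364263), which 2 of 29 members (6.9%) and 16.2% of all genes followed. The reverse order, SCI 3, SCI 2, SCI 1, occurred in 12 of 29 members (41.4%) and in 16.3% of all genes.

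With the hepatocyte level as a covariate the log2 fold changes of Rsad2 and Gbp2 were 2.30 ± 0.33 and 1.69 ± 0.27, and both stayed called (edgeR adjusted p = 0.0002 and 0.000637). The count of called members was 2 in that fit too, and the median was 0.39. Markers of other cells moved as follows. The 10 neutrophil markers, all detected, summed to 20.0 to 50.0 CPM in Sham and 56.2 to 77.3 CPM in SCI, with none called among 7 tested. The 10 microglia markers summed to 207 to 242 CPM in Sham and 185 to 226 CPM in SCI, with P2ry12 called lower. Of 10 T, NK and B cell markers, Trac and Klrb1c had no count and the sums were 1.35 to 5.19 and 4.15 to 5.55 CPM. The 10 monocyte and macrophage markers summed to 68.4 to 108 and 83.0 to 99.3 CPM, with Pf4 called higher. The other tested markers of that list overlapped between the groups and were not called, with log2 fold changes from -0.53 (Cd163) to 0.56 (Chil3). The 10 astrocyte markers summed to 2166 to 3244 CPM in Sham and 2929 to 3037 CPM in SCI. Among them Sox9 was called higher, at 44.6 ± 3.70 CPM against 83.0 ± 12.2 CPM (SD, n = 3; edgeR adjusted p = 0.0215), and Gfap was higher without overlap but not called (287 ± 27.2 against 370 ± 17.9 CPM, adjusted p = 0.740). Gja1 was lower without overlap and not called (38.6 ± 1.08 against 32.6 ± 2.74 CPM, edgeR adjusted p = 0.859). The other astrocyte markers overlapped between the groups and were not called, with log2 fold changes from -0.10 to 0.37. The 10 erythroid markers summed to 700 to 948 CPM in Sham and 1683 to 4397 CPM in SCI, highest in SCI 3, with 5 called higher among 8 tested. Endothelium sums overlapped, at 217 to 260 and 238 to 279 CPM. The part of these cells in the rise of Rsad2 and Gbp2 was not tested.

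**Figure D4:**
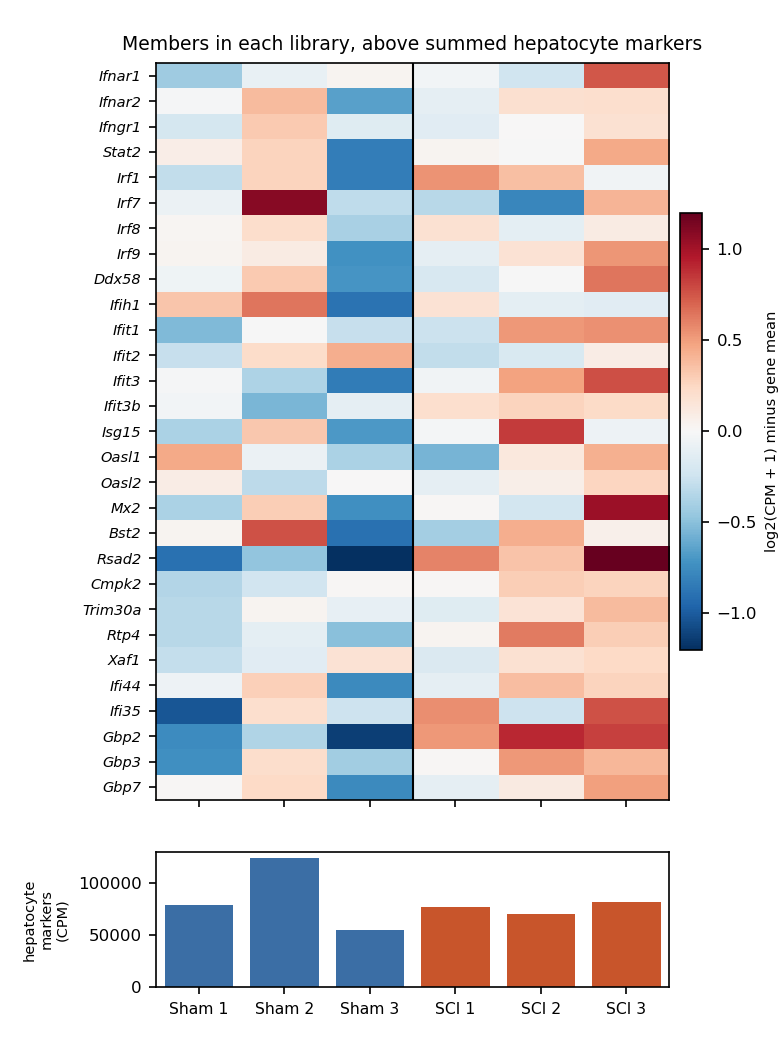
Deviation of each tested member from its own mean over 6 libraries, in log2(CPM + 1) (red above, blue below; colours end at ±1.2), above bars of the summed hepatocyte markers in CPM. Sham 3 is blue for most members and has the lowest bar, and SCI 3 is red for most members.

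Further genes of the pathway were taken from lists of 133 symbols, of which 130 matched, 104 had a count and 81 were tested. Of these 81, 3 rose and 0 fell (4 and 3 at an unadjusted p under 0.05 in edgeR, and 0 lower by DESeq2 or limma voom), with a median log2 fold change of 0.10. Over all genes tested, 0.885% were called higher and 0.0442% lower in edgeR. At its unadjusted p under 0.05 the shares were 4.27% and 3.11%. The interferons themselves were almost undetected. Of 21 ligand genes, 20, with Ifnb1 among them, had no count in any library, and Ifng had 4 counts in Sham 2 alone. Alpha interferon genes are near-identical copies, and how reads with several matches were treated is not given in the sources used here.

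Of the signalling genes, 0 of 8 tested passed in either direction (0 at an unadjusted p under 0.05). Jak1, the kinase of both receptor types, was at 250 ± 12.3 CPM (SD, n = 3) in Sham against 262 ± 9.13 CPM for the SCI group (log2 fold change 0.06 ± 0.19). The other IRF factors, of which 7 were tested, lay between -0.09 and 0.26, among them Irf2, a factor that competes with Irf1, at 0.03 ± 0.17, and the corepressor Irf2bp2 at 0.23 ± 0.18. Nucleic acid sensing genes had 0 of 13 called (1 higher at an unadjusted p under 0.05). Mavs, the adaptor of both RNA sensors, and Trim25, which activates RIG-I, had log2 fold changes of -0.17 ± 0.25 and -0.00 ± 0.23.

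Among 33 further antiviral effectors, Slfn2 and Znfx1 rose. Slfn2, a Schlafen protein of leukocyte quiescence, was at 1.31, 1.44 and 1.35 CPM in Sham and 10.1, 6.33 and 8.50 CPM in SCI (log2 fold change 2.59 ± 0.36, edgeR adjusted p = 0.00111). Znfx1, an RNA helicase that senses viral RNA at mitochondria, was at 24.9, 27.0 and 33.5 CPM against 58.6, 56.6 and 68.4 CPM (1.11 ± 0.19, adjusted p = 0.00470). The groups lay far apart in both genes, and the call of Znfx1 was lost without Sham 1 (adjusted p = 0.0901). The abundant membrane proteins Ifitm3 and Ifitm2 had log2 fold changes of 0.14 ± 0.27 and 0.10 ± 0.25. Of the windows of Slfn2 and Znfx1 none held an ISRE or GAS match.

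Among the chemokines of the interferon response, Cxcl10 rose, from 0.917, 1.34 and 0.270 CPM in Sham to 9.65, 10.8 and 5.34 CPM in SCI, and its window holds 1 ISRE match that begins 213 bases before the start. Cxcl9, which interferon gamma induces most selectively, was at 9.69, 10.1 and 5.68 CPM in Sham and 4.34, 8.93 and 6.13 CPM in SCI (-0.44 ± 0.32). The further GTPases of the interferon gamma response had 0 of 8 called, 2 lower and 0 higher at an unadjusted p under 0.05, and a median of -0.21. Iigp1, which strips membranes from parasite vacuoles, was at 158, 253 and 105 CPM in Sham and 159, 142 and 173 CPM in SCI (-0.13 ± 0.26), and Igtp had 0.43 ± 0.26. Antigen processing had 0 of 10 called (0 at an unadjusted p under 0.05). B2m, the light chain of MHC class I, was at 1244, 1979 and 826 CPM in Sham and 1124, 1138 and 1166 CPM in SCI, and the peptide loading factor Tapbp had 0.17 ± 0.20. In Iigp1 and B2m too, Sham 2 was highest and Sham 3 lowest.

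**Figure D5:**
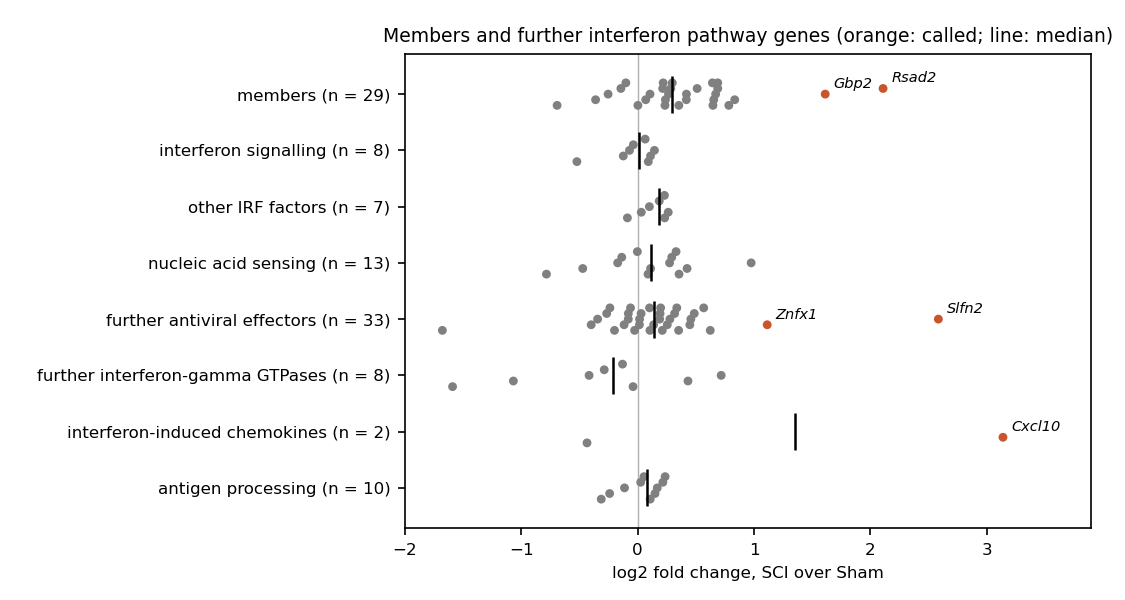
log2 fold changes of the tested members and of 7 lists of further pathway genes; each point is a gene, black lines are medians and orange marks an adjusted p under 0.05. The 5 called genes are Rsad2, Gbp2, Znfx1, Slfn2 and Cxcl10, and the 6 further lists with more than 2 tested genes have medians between -0.21 and 0.19.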

How the data were processed

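RNA was measured in 3 Sham and 3 SCI libraries of mouse spinal cord. Per the labels' protocols, the Lexogen QuantSeq Forward kit was used, which reads near the 3′ end of transcripts. The authors deposited 1 table of raw read counts per library and Ensembl gene. Per the submitters' processing notes, STAR 2.7.2b and DESeq2 1.24.0 were used on mm10. The counting tool and strand setting were not given in the sources used here.

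Symbols matched 42462 of 43432 identifiers, and positions came from GENCODE M21 on GRCm38. Genes passed edgeR's filterByExpr, which left 13560 of 21524 genes with a count. The contrast of SCI and Sham used the quasi-likelihood test of edgeR 4.0.16 (R 4.3.3) with TMM and robust estimation, in all 6 libraries without covariates, with Benjamini-Hochberg adjustment over all genes tested. The procedure was tested on simulated data. Fold changes are log2 values with SE, and intervals at 95% are unadjusted.

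Alternatives were other scalings and filters, the DESeq2 1.42.0 Wald test, limma 3.58.1 voom, a replicate block, a hepatocyte covariate and leaving out each library. The members, the lists and the tests were chosen with earlier results of these data known. The rule for named genes gave library values to called members and to the 2 highest by mean CPM in each role. Other members with library values were chosen after their values were seen. Of each further list, the called genes and the 2 highest were named, except 1 gene that is not reported here. No library pair within a group looked like a duplicate (chi-square per degree of freedom 6.51 to 34.6). Shared words of 50 bases were counted in the last 500 bases of each member's longest coding transcript.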

Additional observations from a re-analysis of the deposited data

How the results depend on the processing

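Of 629 pairs of a named gene and an alternative, over 45 genes and 14 alternatives, 622 gave the same call and 7 lost it. The lost calls were those of Rsad2, Gbp2 and Znfx1. In 33 pairs a gene that was called in neither fit changed sign. Members called higher numbered 2 with all libraries, 1 with limma voom, 1 with a replicate block and 0 to 2 when single libraries were left out (0 without Sham 1, 1 without SCI 2 and 1 without SCI 3), and none was called lower. The median of the members ran from 0.13 (without SCI 3) to 0.46 (without Sham 2). Over all genes, 120 were higher and 6 lower. They were 182 and 42 with no filter and 209 and 28 with the hepatocyte covariate. Leaving out single libraries gave 62 (without Sham 1) to 132 higher and 1 to 14 lower, where each library but Sham 2 and Sham 3 brought the count to 3 or fewer and those brought it to 12 and 14. The lower genes numbered 11 with the DESeq2 Wald test. The cause of these shifts was not tested.

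The replicate block left 81 genes higher and 1 lower, and Rsad2 was not called in it (adjusted p = 0.141). Same-numbered libraries did not deviate together (correlations of -0.172 to -0.0654), and no library correlated best with its own number, so the block was not used. Low counts limited the precision: Isg15, Oasl1 and Mx2 had standard errors of 0.55 to 0.58, and their 95% intervals include both no change and a doubling.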
